A study of Caenorhabditis elegans with 45 samples.

Results

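The major sperm protein (msp) genes and their sperm-specific relatives, the ssp and ssq genes, were followed through 15 groups of Caenorhabditis elegans hermaphrodites. All genes whose symbol in the WBcel235 annotation begins with msp-, ssp- or ssq- were taken, by name and without regard to their values, which gave 47 genes: 31 msp, 12 ssp and 4 ssq. Whole day 1 adults of 8 parental strains were profiled, together with the F1 offspring of each of the 7 wild strains (CB4856, DL238, ECA701, ECA722, EG4348, QX1211 and XZ1516) with N2. There were 3 polyadenylated RNA libraries per group, 45 in all. Per the labels' protocols, parental animals came from self-fertilised hermaphrodites. The mothers of every F1 group were N2 animals with the fog-2 mutation, mated to males of the wild strain, so all F1 groups share that maternal genotype. Males were removed from the plates by hand, and each of 3 RNA extraction batches held 1 replicate per strain. No label ties a batch to a replicate number, so no value within a batch can be given, and none ties a replicate to a separate culture, so p-values here measure only the spread between these libraries. The parental N2 group is labelled as strain CB4108 with a fog-2 deletion, whereas the growth protocol speaks of selfed N2 hermaphrodites, and it is called the libraries labelled N2 below. The fog-2 gene is needed for hermaphrodites to make sperm of their own. Its RNA stood at 36.9 to 45.3 CPM (counts relative to library size, scaled between libraries by TMM) in those libraries and at 31.7 to 46.8 CPM in the 21 wild parental libraries.

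Major sperm protein is the cytoskeletal protein of nematode sperm, which crawl on a pseudopod driven by its filaments rather than by actin. It is packed into fibrous bodies while sperm form, and sperm also release it as a hormone that triggers oocyte maturation and contraction of the sheath cells around the oocytes. The gene family is known for many nearly identical copies that are transcribed during sperm formation, which in hermaphrodites happens in the last larval stage, before the germline switches to oocytes. The ssp genes encode small sperm-specific proteins related to major sperm protein, and the ssq genes encode a separate class of sperm-specific proteins.

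The copies lie in a few groups. Of the 31 msp genes, 13 are on chromosome II between positions 4785898 and 5810330, and 18 are on chromosome IV between 5055631 and 10143740. When neighbours less than 1 Mb apart were joined, chromosome IV held a group of 13 members with 9 msp genes at 4994371 to 5316906 and a group of 14 members with 9 msp genes at 9689015 to 10738602. The 12 ssp genes are divided among chromosomes I (4), IV (6) and V (2), and the 4 ssq genes are on chromosome IV. Transcripts of 28 of the 31 msp genes were 384 bases long in the N2 annotation. The annotation places 5 members over another gene: msp-31 over aagr-2, msp-33 over gst-9, msp-38 over dhs-12, msp-45 over srb-13 and ssq-4 over T28H11.7. The sources do not state whether strand was used in counting, so reads of such a pair may not have been told apart.

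How far these copies could be counted singly was read from salmon's equivalence classes, which list the number of sequenced fragments that match each set of transcripts. Over all libraries, 521656 fragments matched at least 1 msp gene. Of these, 67.9% matched a single msp gene, 19.2% matched several members, and 12.9% matched genes outside the families as well. Among the ssp genes 74.1% of 88314 fragments matched a single member, and among the ssq genes 98.8% of 127063. Copies differed widely in this respect: 8 of 31 msp genes had at least 90% of their fragments to themselves and 15 had under 50%, against 8 and 4 of 12 ssp genes. The 2 genes named ssp-9 (WBGene00006038 and WBGene00006040) have identical N2 transcripts and received equal kallisto values. Single-gene values are therefore given with 2 countings, the kallisto estimates and the totals of the allele-aware gene tables, which use both parental genomes. A member is described below as called by both countings where each gave an adjusted p under 0.05 in the same direction, and family sums keep reads that copies share within the sum.

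Libraries held 24.5 to 90.5 M kallisto counts (median 63.6 M), so that 1 CPM rested on 25.3 to 92.6 counts. Of the 47 members, 46 passed the count filter, and msp-58 had 0 counts in both countings. All libraries contained sperm transcripts. The summed msp level ran from 121 TPM (abundance relative to all transcripts of the library, corrected for length) in replicate 1 of the ECA722 F1 to 2000 TPM in replicate 1 of the XZ1516 F1, with a median of 661 TPM. The libraries labelled N2 held 811 to 1059 TPM. Some F1 libraries stood apart from the others of their group. The highest msp sum was up to 8.39 times the lowest within an F1 group (median 2.52 times), and up to 2.17 times within a parental group (median 1.28 times). In whole animals, fewer cells of a type and less RNA per cell cannot be told apart.

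Per gene and per length, the most abundant msp gene was msp-56 (chromosome IV, 9841540 to 9841923), with a mean of 50.9 TPM over the libraries and a range of 7.57 to 223 TPM. It was followed by msp-51 at 46 and msp-59 at 41.5 TPM. The level was spread over the family: the median msp gene had a mean of 24.8 TPM, 27 of 31 had at least 10 TPM and 1 had under 1 TPM. Among the ssp genes ssp-37 (chromosome I, 12561040 to 12561560) averaged 50 TPM and each ssp-9 gene 29.6 TPM, beside a family median of 13.6 TPM. Of the 4 ssq genes, ssq-1, ssq-4 and ssq-2 averaged 15.2, 14.1 and 12.1 TPM.

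Wild strains differed from the libraries labelled N2, and from each other, in the total of msp RNA. In kallisto CPM the sum was 181, 219 and 169 in the libraries labelled N2. It was 41.3 to 52.6 in XZ1516, 76.5 to 78.9 in CB4856, 67.2 to 95.1 in ECA722 and 85.4 to 95.1 in EG4348, all below the lowest library labelled N2. ECA701 held 176 to 328 CPM and DL238 143, 195 and 309 CPM, both of which overlapped the libraries labelled N2. The order of the group means was ECA701 (271 ± 82.5, SD, n = 3), DL238 (216 ± 85.1), N2 (189.8 ± 26.0), QX1211 (124 ± 9.99), EG4348 (90 ± 4.87), ECA722 (81.8 ± 14.0), CB4856 (77.9 ± 1.23) and XZ1516 (47.2 ± 5.67). ECA701, DL238 and N2 overlapped each other, and so did ECA722 with EG4348 and with CB4856. The place of QX1211 and ECA722 in this order, and the overlap of ECA701 with N2, depended on the counting. By the allele-aware totals the ECA722 mean lay above that of EG4348 (109 against 86.9 CPM). QX1211 libraries lay below those labelled N2 by kallisto, at 116 to 135 CPM, but reached 183 to 213 CPM in the allele-aware totals (mean 195 against 169). ECA701 libraries rose to 235 to 440 allele-aware CPM, above every library labelled N2, with a ratio of means of 2.15. Without replicate 1 of DL238, the highest of that group, the log2 ratio of its mean to N2 went from 0.19 to -0.17.

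**Figure D1:**
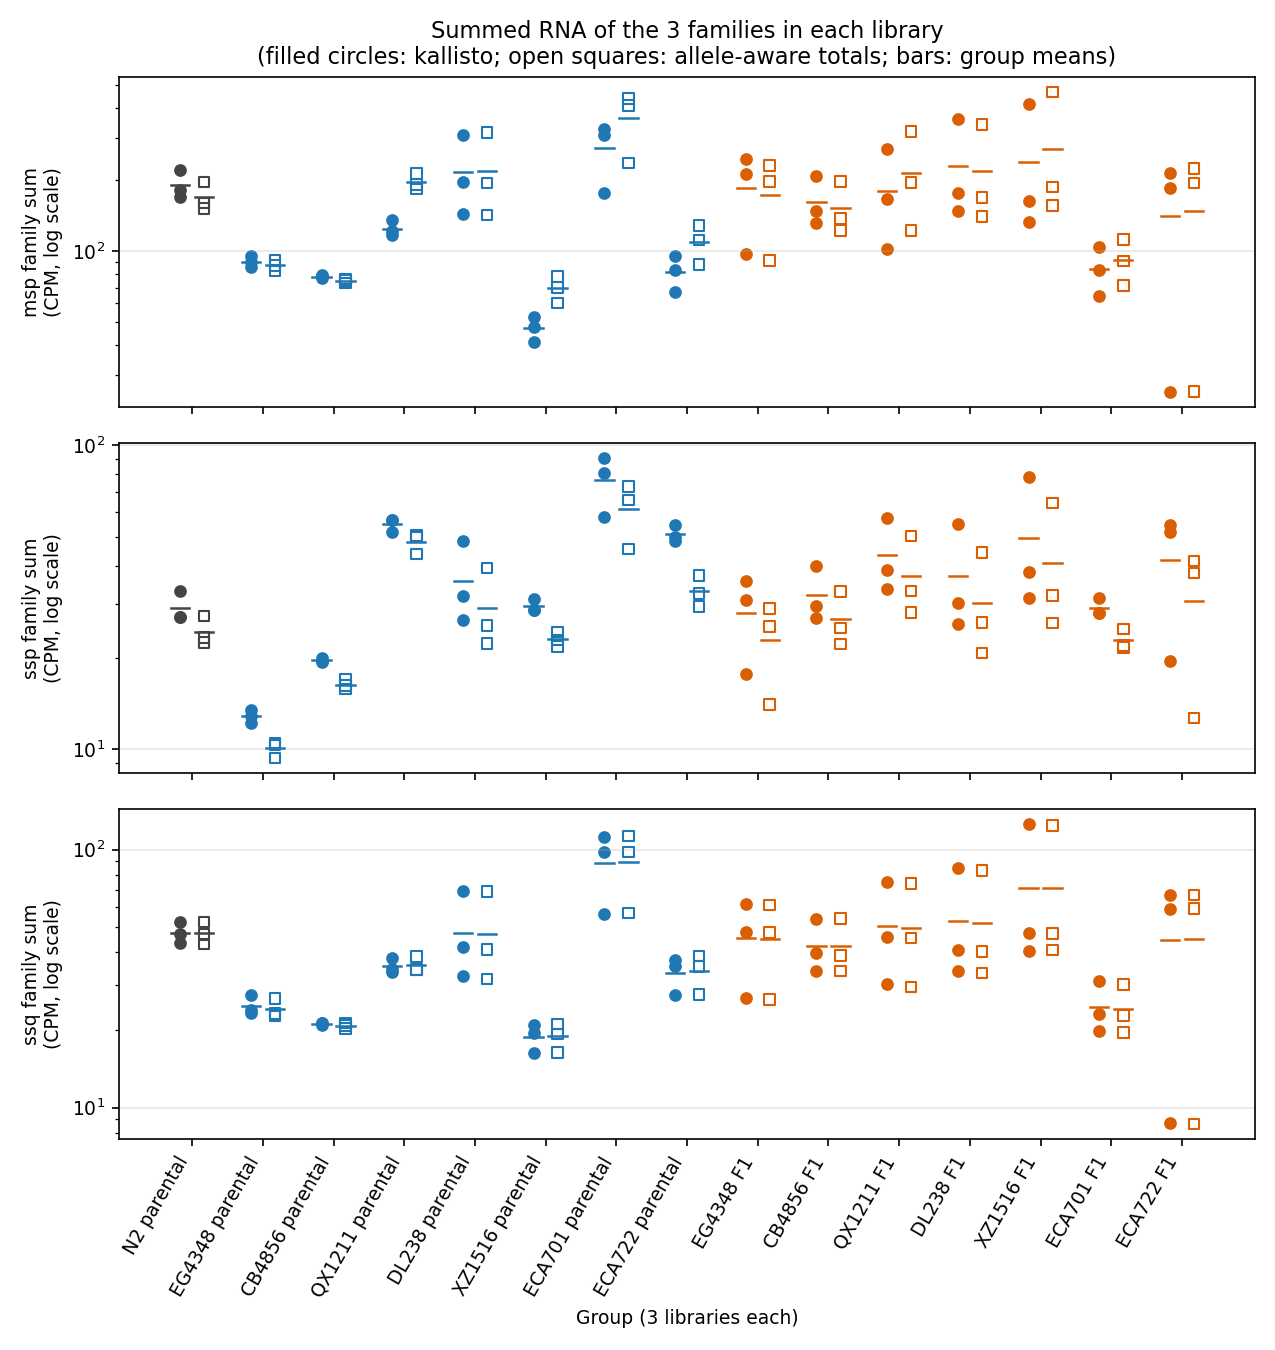
Summed CPM of the msp, ssp and ssq genes in each of the 45 libraries (vertical, log scale) by group, with filled circles for kallisto, open squares for the allele-aware totals and bars for group means. The XZ1516 parental libraries hold the lowest parental msp sums (41.3 to 52.6 kallisto CPM), and the ECA722 F1 library at 25.3 CPM lies apart from the other two of its group.

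The ssq sum ranked the strains much as the msp sum did, and the ssp sum, which includes the abundant ssp-37, did not. The mean ssq sum was 47.7 CPM in N2. It was lower, with no overlap, in XZ1516 (18.9), CB4856 (21.1), EG4348 (24.9), ECA722 (33.3) and QX1211 (35.4), and higher in ECA701 (88.7), while DL238 (47.7) overlapped. The mean ssp sum was 29.2 CPM in N2. It was lower in EG4348 (12.8) and CB4856 (19.6) and higher in QX1211 (54.9), ECA701 (76.5) and ECA722 (51), with no overlap in any of these, while DL238 (35.6) and XZ1516 (29.5) overlapped. The ssp sum rested in part on ssp-37. This gene stood at 121 to 140 TPM in QX1211, 93.2 to 109 in ECA722 and 58.5 to 74.5 in XZ1516, against 18.6 to 22.3 in N2. Over the 12 ssp genes the median log2 change from N2 by kallisto was 0.12 in QX1211, -0.25 in ECA722 and -1.33 in XZ1516. In ECA701 it was 1.12. From library to library the families moved together. Across 45 libraries, deviations of the log2 msp sum from the group mean followed those of the ssq sum with a Pearson r of 0.996 and a Spearman rho of 0.990, and those of the ssp sum with an r of 0.956 and a rho of 0.919. These are descriptions, since the sums share libraries and scaling. Single members showed the same: the median r between pairs of msp genes was 0.93, and that between msp and ssq genes 0.95. The members that followed the others least were ssp-37, with a median r of -0.01 with the rest, ssp-32 (0.29) and ssp-36 (0.64). Every other tested member had a median r of at least 0.77.

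Single members were compared between each wild strain and the libraries labelled N2 with edgeR's quasi-likelihood test, with Benjamini-Hochberg adjustment over all 16444 genes tested. The 7 contrasts share the N2 libraries. In XZ1516 kallisto called 33 of 46 members lower (71.7%, beside 22.6% of all genes) and 3 higher (6.52%, beside 22.6%), and both countings called 27 lower (58.7%, beside 21.3%) and 3 higher (beside 18.4%). The median log2 change of the members there was -1.52 by kallisto and -1.29 by the allele-aware totals. In CB4856 16 members were called lower by kallisto (34.8%, beside 13.4%) and 10 by both (21.7%, beside 12.7%), with none called higher (beside 18.2% and 13.7%) and a median of -1.11. In EG4348 13 were called lower by kallisto (28.3%, beside 15.5%) and 9 by both (19.6%, beside 14.7%), with none higher (beside 19.2% and 14.2%) and a median of -1.01. The median over all genes was between -0.01 and 0.03 in these contrasts. The counts in EG4348 and CB4856 depended on the libraries that entered the fit. With only the 6 libraries of the groups compared, 41 of 42 tested members were called lower in EG4348 (97.6%, beside 19.9% of all genes in that fit), 38 of 42 in CB4856 (90.5%, beside 12.7%) and 37 of 44 in XZ1516 (84.1%, beside 24.8%). With 1 library left out of the whole set, 6 to 10 members were called in EG4348 (6 without its replicate 1) and 10 to 14 in CB4856 (10 without its replicate 2).

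ECA701 was the strain with the most members called higher: 17 by kallisto (37.0%, beside 27.7% of all genes) and 15 by both (32.6%, beside 24.0%). It also had 8 called lower by kallisto (beside 24.8%) and 6 by both (13.0%, beside 23.9%), and its median log2 change was 0.77 by kallisto and 1.03 by the allele-aware totals. In ECA722 18 members were lower and 4 higher by kallisto (beside 19.1% and 22.3%), and 9 lower and 4 higher by both (19.6% and 8.70%, beside 18.1% and 19.6%), the count of 9 lower being near the share of all genes. In QX1211 16 were lower and 4 higher by kallisto (beside 23.8% and 21.4%), but 6 lower and 4 higher by both (beside 22.5% and 20.4%). Its median changed sign with the counting, from -0.33 to 0.21. DL238 differed in the fewest members, with 4 lower and 3 higher by kallisto (beside 17.3% and 18.6%) and 3 and 3 by both (beside 16.5% and 16.7%). With only the groups compared, 24 of 45 members were lower and 12 higher in QX1211 (53.3% and 26.7%, beside 24.6% and 22.6%), and 6 of 43 lower and 6 higher in DL238 (14.0% each, beside 13.6% and 12.4%). In a test of equality of all 8 parental groups, 46 of 46 members were called by both countings, beside 86.3% of all genes.

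Of the 46 members, 43 were called by both countings in at least 1 wild strain (93.5%, beside 83.0% of the 16088 genes tested by both). There were 26 that were only ever called lower (56.5%, beside 32.3%), 7 that were only ever called higher (15.2%, beside 31.1%), and 10 that were lower in some strains and higher in others (21.7%, beside 19.6%). The exceptions called in no strain were msp-49, msp-113 and the ssp-9 gene WBGene00006038. The gene lowered in the most strains was msp-65 (chromosome IV, 5316523 to 5316906), called lower in 6 of 7. Its allele-aware level was 3.72, 4.12 and 3.37 CPM in the libraries labelled N2. It was 0.139 to 0.427 CPM in QX1211, 0.347 to 0.525 in XZ1516, 0.230 to 0.835 in ECA701, 0.540 to 0.820 in ECA722, 0.581 to 0.990 in CB4856 and 1.27 to 1.44 in EG4348, none of which reached the level in N2. DL238, at 2.16 to 4.46 CPM, overlapped. By kallisto msp-65 had 0 counts in QX1211, XZ1516 and ECA701, where the allele-aware totals held 43, 71 and 96 counts over the 3 libraries. Next came msp-19 and msp-53, each called lower by both countings in 5 strains.

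Among the 3 most abundant msp genes the strains moved in opposite directions. For msp-56 the allele-aware level was 4.76, 6.41 and 5.23 CPM in the libraries labelled N2, 33.4, 19.6 and 14.2 CPM in DL238 and 39.1, 24.4 and 37.1 CPM in ECA701, and it was called higher in both strains. For msp-51 the level was 4.44 to 6.69 CPM in N2 and 22.1 to 42.6 CPM in ECA701, with a log2 change of 1.61 (SE 0.457, adjusted p = 0.00343, edgeR) by kallisto and 2.68 by the allele-aware totals. For msp-59 ECA701 lay on the other side, at 2.48 to 5.24 CPM against 9.22 to 12.5 CPM, and ECA722 at 1.89 to 2.68 CPM. These were falls in log2 level of -1.35 and -2.18 by the allele-aware totals and of -2.55 and -4.47 by kallisto. By the allele-aware totals the makeup of the msp pool therefore differed by strain. Of their fragments, 23.6% for msp-56, 19.4% for msp-51 and 48.0% for msp-59 matched that gene alone. The levels of these copies thus rest largely on how shared fragments were divided. Over the 31 genes, shares of the msp sum had a Pearson r of 0.897 to 0.995 between replicates and of 0.27 (ECA722) to 0.75 (EG4348) between a wild strain and N2. None of the 5 largest contributors in ECA701 or ECA722 was among the 5 largest in N2. These correlations are across genes, which are not independent replicates.

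The ssq genes, most of whose fragments were unique to 1 gene, gave similar values by both countings except for ssq-2 in QX1211. For ssq-1 the allele-aware level was 13.4, 14.0 and 12.3 CPM in N2, 5.66 to 6.83 CPM in EG4348, 5.43 to 6.62 CPM in CB4856 and 3.49 to 4.30 CPM in XZ1516, and these 3 strains were called lower. ECA701, at 14.4 to 26.8 CPM, lay above N2 without passing the test by both countings. For ssq-4 the level was 14.2 to 17.0 CPM in N2 and 4.94 to 7.31 CPM in XZ1516, a log2 change of -1.29 (SE 0.465, adjusted p = 0.0219, edgeR). For ssq-2 QX1211 was set apart, at 1.04, 0.758 and 0.988 CPM against 14.9, 16.6 and 12.8 CPM in N2, and at 2.04, 1.71 and 2.11 CPM by kallisto, with log2 changes of -2.93 by kallisto and -4.0 by the allele-aware totals. In the 6 other wild strains the ssq-2 level was 6.22 CPM or more.

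**Figure D2:**
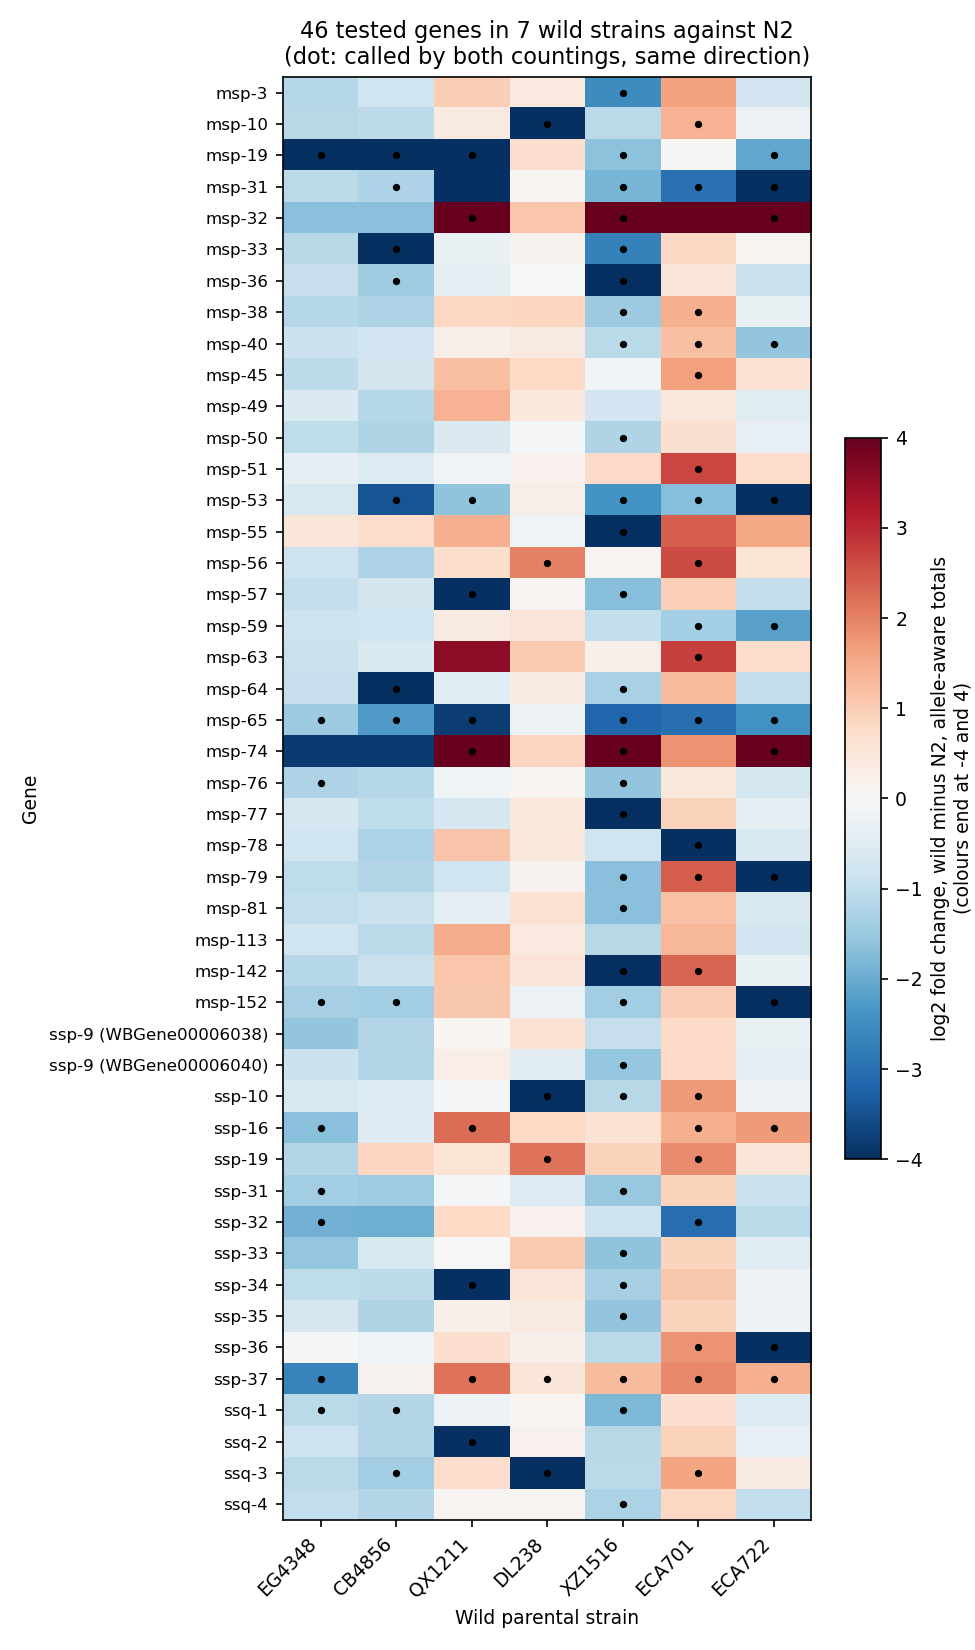
Log2 fold change of each of 46 tested members in each wild parental strain against the libraries labelled N2, by the allele-aware totals, with colour for the size (blue lower, red higher, ending at -4 and 4) and a dot where both countings called the change in the same direction. The XZ1516 column holds 27 dots on falls and the ECA701 column 15 on rises, and ssp-37 has dots on rises in 5 strains.

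Some members were higher in several wild strains. The clearest was ssp-37. Its allele-aware level was 5.50, 5.60 and 4.68 CPM in the libraries labelled N2, 21.0 to 27.3 CPM in QX1211, 19.2 to 20.8 CPM in ECA701, 12.9 to 15.0 CPM in ECA722, 10.8 to 15.0 CPM in XZ1516 and 7.05 to 7.83 CPM in DL238. None of these 5 strains overlapped N2, and both countings called each of them higher. CB4856, at 5.03 to 6.06 CPM, overlapped N2, and EG4348 was lower at 0.914, 0.628 and 0.891 CPM. The kallisto log2 changes of ssp-37 ran from -2.27 (SE 0.112) in EG4348 to 2.55 in QX1211. Its F1 levels lay between those of the parents in QX1211 (11.8 to 12.5 CPM), ECA701 (10.6 to 12.0), ECA722 (8.20 to 8.83), XZ1516 (7.05 to 8.33) and EG4348 (2.50 to 2.80).

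Another pair of copies was nearly silent in the libraries labelled N2 and present in wild strains. For msp-74 (chromosome II, 5115102 to 5115335), the N2 level was 0, 0.0571 and 0.0108 allele-aware CPM. It was 1.73, 1.31 and 1.63 CPM in QX1211, 1.16, 1.19 and 0.661 CPM in ECA722 and 0.659, 0.731 and 0.336 CPM in XZ1516. For msp-32 (chromosome II, 4898829 to 4899188), the N2 level was 0, 0 and 0.0108 CPM, and that in QX1211 was 2.36, 2.29 and 2.51 CPM, with 0.918 to 1.36 CPM in ECA722 and 0.168 to 0.351 CPM in XZ1516. Both genes were called higher in those 3 strains by both countings. Further ssp genes rose: ssp-16 in QX1211, ECA701 and ECA722, with a fall in EG4348, and ssp-19 in DL238 and ECA701. The ssp-19 level was 0.620, 0.891 and 0.485 CPM in N2, 4.55, 2.53 and 2.03 CPM in DL238 and 2.77, 1.22 and 3.55 CPM in ECA701.

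In 12 cases a copy well counted in the libraries labelled N2 was at or near 0 in 1 wild strain. The limits, set after the values were seen, were at least 100 counts over the libraries labelled N2 and at most 20 over the 3 wild libraries by both countings. The 12 cases were 12 different genes. At 0 in all 3 wild libraries were msp-19 in EG4348, msp-10 in DL238, msp-78 in ECA701 and msp-79 in ECA722. The msp-19 level in N2 was 8.62, 10.1 and 7.86 allele-aware CPM, so that with a floor of 3 counts over the 3 wild libraries it was at least 614-fold lower in EG4348. For msp-10 (5.14, 6.69 and 4.76 CPM in N2) the bound was at least 321-fold, for msp-78 (4.82, 6.63 and 5.11 CPM) at least 403-fold and for msp-79 (6.40, 6.98 and 5.13 CPM) at least 446-fold lower. These genes lie on chromosome IV, at 5260589 to 5260972, 9837649 to 9838032, 9770046 to 9770429 and 9766771 to 9767154. Absence of a gene and absence of reads assigned to it could not be told apart: fragments in classes shared with other copies numbered 622, 2809, 6043 and 704 in those wild libraries.

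The remaining 8 cases had 1 to 14 allele-aware counts over the 3 wild libraries. With 95% counting intervals, which cover counting error only because the reads carry no molecular identifiers, the N2 to wild ratio was 1458 (261 to 57640) for msp-53 in ECA722 and 910 (252 to 7517) for msp-36 in XZ1516. It was 283 (96.7 to 1375) for msp-33 and 132 (56.5 to 408) for msp-64 in CB4856, both on chromosome II, and 127 (72.6 to 246) for msp-57 in QX1211. Among the relatives it was 30.8 (15.5 to 71.9) for ssp-34 in QX1211, 50.7 (28.2 to 102) for ssp-10 in DL238 and 51 (30.2 to 93.6) for ssq-3 in DL238. The F1 of each of these crosses contained the copy again. The ssq-3 level, for example, was 4.28, 4.82 and 3.43 CPM in N2, 0.0584, 0.0893 and 0.0930 CPM in DL238, and 3.61, 1.73 and 1.82 CPM in the DL238 F1. Taken as a share of its own family, which removes the differences between libraries in the family total, the F1 value was 0.368 to 0.856 of the N2 value (median 0.538). For ssp-10 (0.856) and ssp-34 (0.612) that total includes the abundant ssp-37, which did not follow the other members (median r of -0.01). These 2 shares therefore also depend on the ssp-37 level. In all 12 cases every F1 share lay below every N2 share. The kallisto estimates alone would have given 26 cases.

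**Figure D3:**
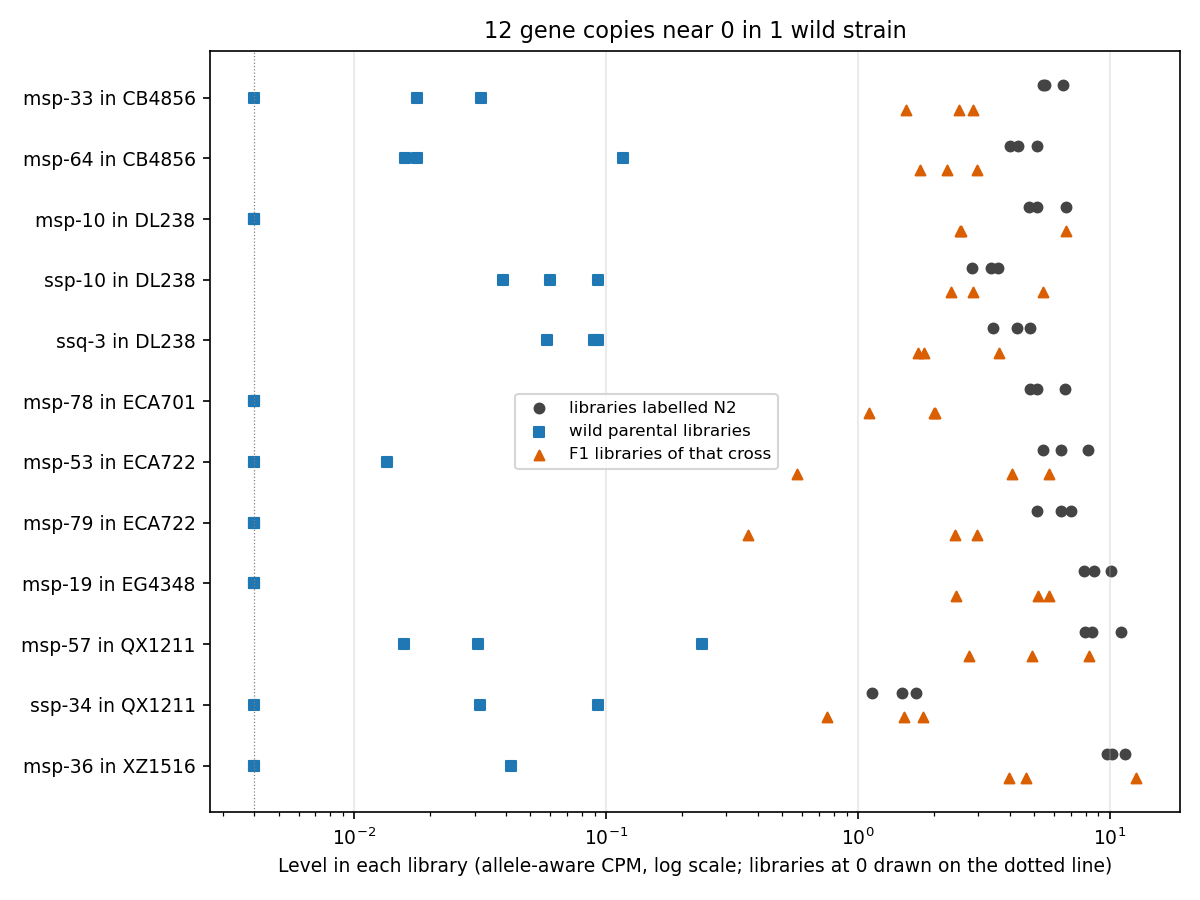
Allele-aware CPM (log scale) of the 12 near-zero copies in each library labelled N2 (circles), wild parental library (squares) and F1 library of the cross (triangles), with libraries at 0 drawn on the dotted line. The wild libraries lie far to the left of the other two groups, all 3 at 0 for msp-10, msp-19, msp-78 and msp-79.

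The F1 msp sum lay above that of the wild parent in XZ1516 and CB4856, below it in ECA701, and overlapped that of N2 in 6 of 7 crosses. In kallisto CPM the F1 msp sums were 245, 211 and 97.1 for EG4348, 207, 131 and 147 for CB4856, 270, 102 and 165 for QX1211, 362, 147 and 176 for DL238, 417, 133 and 162 for XZ1516, 103, 83.1 and 64.7 for ECA701, and 25.3, 213 and 184 for ECA722. All F1 groups overlapped the libraries labelled N2 except that of ECA701, which lay below both parents. Replicate 1 held the highest msp sum in 6 of 7 F1 groups, by both countings, and in 3 of 8 parental groups. Against the wild parent, the F1 mean was 5.03 times as high in XZ1516 (3.89 times by the allele-aware totals) and 2.07 times in CB4856 (2.03), with no overlap by either counting. In EG4348 it was 2.05 times as high (1.98), with no overlap by kallisto and overlap by the allele-aware totals. The QX1211, DL238 and ECA722 F1 overlapped their wild parents, at ratios of 1.44, 1.06 and 1.72. In ECA701 the F1 mean was 0.309 of that of the wild parent (0.251 allele-aware). The mean summed level of 10 genes of the male soma moved the same way. It went from 1.53 CPM in the XZ1516 parent to 2.79 CPM in its F1 and from 3.94 CPM in the ECA701 parent to 1.41 CPM in its F1. The XZ1516 F1 mean rested largely on replicate 1, at 4.84 CPM. Replicates 2 and 3 each held 1.77 CPM, beside up to 1.74 CPM in the parent. The part of this sum in the msp differences was not tested. Single libraries carried some of the msp ratios: without replicate 1 the XZ1516 F1 was 3.12 times its wild parent, the ECA722 F1 2.42 times and the DL238 F1 0.749 times.

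Gene by gene, with edgeR's quasi-likelihood test, both countings called 38 of 46 members higher in the XZ1516 F1 than in the wild parent (82.6%, beside 18.5% of all genes) and 1 lower (beside 14.4%). In the ECA701 F1 32 were lower (69.6%, beside 24.2%) and 2 higher (beside 19.9%). In EG4348 9 were higher (19.6%, beside 8.93%) and none lower (beside 10.3%). In the other 4 crosses the shares called higher by both countings were close to or below those over all genes: 7 in CB4856 (15.2%, beside 14.4%), 7 in ECA722 (15.2%, beside 16.7%), 6 in QX1211 (13.0%, beside 24.0%) and 3 in DL238 (6.52%, beside 10.4%). Of these crosses ECA722 and QX1211 had 1 member lower each (beside 19.0% and 23.4%), and CB4856 and DL238 had none (beside 15.6% and 12.6%). By kallisto 40 members were higher and 1 lower in XZ1516 (beside 19.2% and 16.8%), and 4 higher and 33 lower in ECA701 (71.7% lower, beside 21.0% and 25.3%). There were 15 higher and 1 lower in ECA722 (32.6% higher, beside 17.7% and 19.9%), and 13 higher and 1 lower in QX1211 (28.3% higher, beside 27.0% and 24.2%). With none lower, 11 were higher in EG4348 (23.9%, beside 9.5% and 11.9% lower), 10 in CB4856 (21.7%, beside 14.7% and 17.5%) and 4 in DL238 (8.70%, beside 11.1% and 13.3%). With only the groups compared, 38 of 43 members were higher in EG4348 (88.4%, beside 12.3% of all genes in that fit) and 39 of 42 in CB4856 (92.9%, beside 13.9%). Without replicate 1 of the ECA722 F1, 26 members were called by kallisto in that cross. In the EG4348 cross 4 were called without replicate 1 of the F1 and 23 without replicate 3.

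With each strain given the same weight, the mean of the 7 F1 groups exceeded the mean of the 7 wild groups in 36 members by kallisto (78.3%, beside 37.7%) and in 27 by both (58.7%, beside 36.9%). The median log2 difference of the members was 0.88 by kallisto and 0.62 by the allele-aware totals, against 0.01 over all genes. The largest differences were those of msp-65 (6.66, SE 0.377), msp-19 (4.07) and msp-53 (2.96), the genes most often low in wild strains, at 2.27, 2.80 and 2.49 by the allele-aware totals. The member called lower was ssp-37, at -0.37 by kallisto and -0.26 by the allele-aware totals (1 of 46, beside 33.4% by kallisto and 31.9% by both).

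Set against N2, the members that both countings called in the F1 were no larger a share than that over all genes in any cross or direction, while kallisto gave a larger share of falls in ECA701. Both countings called 8 members higher in XZ1516 (17.4%, beside 18.9%), 5 in QX1211 (10.9%, beside 17.3%), 4 in ECA722 (8.70%, beside 15.7%), 3 in DL238 (6.52%, beside 15.4%), 1 in CB4856 (beside 16.1%), 1 in ECA701 (beside 18.9%) and none in EG4348 (beside 15.5%). They called 9 lower in ECA701 (19.6%, beside 24.3%), 1 each in EG4348, CB4856 and ECA722 (beside 16.9%, 16.6% and 16.9%) and none in QX1211, DL238 and XZ1516 (beside 17.9%, 15.7% and 20.7%). By kallisto 18 members were lower and 1 higher in ECA701 (39.1% lower, beside 25.2% and 22.7% higher). There were 8 higher and 1 lower in XZ1516 (beside 21.4% and 21.5%), 4 and 2 in ECA722 (beside 18.2% and 17.4%), 5 and 0 in QX1211 (beside 19.5% and 18.6%), 3 and 0 in DL238 (beside 17.4% and 16.4%), 1 and 1 in CB4856 (beside 17.7% and 17.2%) and 0 and 1 in EG4348 (beside 17.4% and 17.5%). With only the groups compared, 35 of 43 members were lower in ECA701 (81.4%, beside 24.5% of all genes in that fit), and 10 to 19 were called there with 1 library left out (10 without F1 replicate 3, 12 without F1 replicate 2 or N2 replicate 2). The F1 and wild contrasts share the F1 libraries, and both sets share the N2 libraries.

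Within F1 animals the alleles of a gene stand in the same cells. Where the copies differ in sequence, allele counts were compared within each cross by edgeR's quasi-likelihood test with the library as a term, for genes with a mean of at least 10 allele-specific fragments per F1 library. This left 138 tests on 39 members, of which 38 were called: 12 of 27 in QX1211 (beside 11.4% of all genes tested), 7 of 28 in XZ1516 (beside 17.3%), 7 of 30 in ECA722 (beside 9.76%), 4 of 19 in ECA701 (beside 13.8%), 3 of 15 in CB4856 (beside 7.82%), 3 of 10 in DL238 (beside 7.41%) and 2 of 9 in EG4348 (beside 8.43%). The wild allele was higher in 20 and lower in 18. With fragments specific to 1 allele of 1 gene alone, 32 kept their direction and 6 turned: msp-56 in DL238, XZ1516 and ECA701, msp-59 in QX1211, msp-77 in ECA722 and msp-65 in CB4856. Of the 32, the wild allele was itself read in its wild parent, with at least 10 such fragments, in 24. It was higher in 17 of these and lower in 7. This check covered the wild allele alone and took out only calls of a lower wild allele, of which 7 of 15 passed. The 2 directions therefore cannot be compared. For msp-19 in XZ1516, called higher, there were 370 wild and 0 N2 fragments, although the libraries labelled N2 held 7.86 to 10.1 allele-aware CPM. That case cannot be read as an allele difference. As a check of the labels, member fragments of the other allele made up 0 to 1.35% in each wild parental group and 3 against 9952 in the libraries labelled N2.

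The allele result most like the parental one was that of ssp-37. Its wild allele gave 7.99% of the allele-specific fragments in the EG4348 F1 (37 against 426), 78.8% in QX1211, 82.7% in ECA701, 70.1% in XZ1516 and 67.1% in ECA722, and all 5 were called. The log2 ratios of wild to N2 allele were -3.59, 1.93, 2.26, 1.22 and 1.03, beside allele-aware parental differences of -2.68, 2.18, 1.93, 1.26 and 1.42. In DL238, with 58.1% from the wild allele, the difference was 0.47 (adjusted p = 0.278, edgeR). The wild allele of msp-55 was higher in each of the 5 crosses in which it was tested, with 69.7% of fragments in EG4348 (384 against 167), 70.3% in CB4856, 71.5% in QX1211, 78.6% in ECA701 and 65.9% in ECA722. Between parents, both countings called msp-55 higher than N2 in 0 wild strains and lower in 1, with a median allele-aware log2 change of 0.70. Only 65.1% of its fragments matched that gene alone, and whether its 2 alleles were read equally well was not tested. Of the near-zero copies, the allele tests covered only ssq-3 in DL238, msp-64 in CB4856, and msp-57 and ssp-34 in QX1211. In the F1 there was 1 wild fragment against 220 N2 fragments for ssq-3 and 1 against 127 for msp-64. There were 13 against 422 for msp-57 and 4 against 193 for ssp-34. In the wild parents their wild alleles had only 2, 1, 5 and 7 allele-specific fragments, in the order named. Such counts cannot tell a low wild allele from one that was not read. For ssq-2 in QX1211, 38 fragments were wild and 432 were N2, a log2 ratio of -3.90. The largest fitted ratios, msp-113 and msp-3 in XZ1516 with 0 wild against 58 and 54 N2 fragments, belonged to genes whose wild allele had 0 allele-specific fragments in the wild parent too, while the parent expressed both genes (2.65 to 3.41 and 0.468 to 0.746 allele-aware CPM). They cannot be read as allele differences.

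Other genes of sperm were followed through a list of 15 partners of the fibrous bodies and of sperm formation, 13 of which were matched and tested, while spe-7 and msd-3 were not matched in the annotation. By kallisto, 8 of 13 were higher in ECA701 against N2 (beside 27.7% of all genes) and 0 lower (beside 24.8%). In each of the other 6 strains between 1 and 2 were higher (beside 18.2% to 22.6%) and 0 and 3 lower (beside 13.4% to 23.8%). In the XZ1516 F1 10 rose against the wild parent (beside 19.2%) and 0 fell (beside 16.8%). In the ECA701 F1 12 fell (beside 25.3%) and 1 rose (beside 21.0%). Their summed CPM followed the msp sum from library to library with an r of 0.804 and a rho of 0.853 over 45 libraries. Most of that sum was 1 gene, spe-39, at 91.5 of 130 CPM in N2 and with group means of 88.6 to 111 CPM. Some partners were also near 0 in a wild strain by kallisto. Their allele-aware totals are not given here, so they are not counted with the near-zero copies above. The msd-1 gene, which encodes a small protein with a major sperm protein domain, averaged 2.04 CPM in N2, 0.0233 CPM in ECA722 and 0.0192 CPM in XZ1516, with log2 changes of -6.34 and -6.68. Its relative msd-2 was at 0 CPM in QX1211. Among 4 genes linked to transcription during sperm formation (spe-44, elt-1, snpc-1.3 and snpc-4) there were between 0 and 2 higher and 0 and 2 lower in each strain against N2. Over all genes 18.2% to 27.7% were higher and 13.4% to 24.8% lower in these contrasts.

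On the receiving side, 14 genes of the response to the major sperm protein signal in oocytes and sheath cells, among them the receptor vab-1, the gap junction genes inx-14 and inx-22 and the adenylate cyclase gene acy-4, were tested by kallisto. Between 3 and 7 were higher against N2 in each wild strain (beside 18.2% to 27.7% of all genes) and 0 or 1 lower (beside 13.4% to 24.8%). The most were in XZ1516 (7 higher, beside 22.6%), and medians were 0.02 to 0.18 on the log2 scale. Between 5 and 7 were higher in each F1 group against N2 (beside 17.4% to 22.7%) and 1 and 3 lower (beside 16.4% to 25.2%), with medians of 0.02 to 0.12. In the mean of the F1 against the mean of the wild groups 6 were higher and 7 lower (beside 37.7% and 33.4% of all genes), with a median of -0.06. Their summed level moved opposite to the msp sum from library to library (r of -0.652, rho of -0.599 over 45 libraries), as did that of 10 oocyte markers (r of -0.602, rho of -0.538).

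Males make sperm and carry more of it than adult hermaphrodites, and the plates had held males. The summed level of 10 genes of the male soma (pkd-2, lov-1, cwp-1 to cwp-5, try-5, mab-3 and dmd-3) averaged 1.38 CPM in the libraries labelled N2 (1.01 to 1.88). Among wild parents it averaged 1.09 CPM in EG4348 (0.745 to 1.35), 1.16 in CB4856, 1.53 in XZ1516, 1.72 in ECA722, 1.92 in QX1211, 2.35 in DL238 and 3.94 in ECA701 (3.00 to 4.61). Among F1 groups it averaged 1.41 CPM in ECA701 (1.21 to 1.67) and between 2.37 and 2.80 CPM in the other 6. Between 5 and 10 of the 10 genes were detected in each library. Of the defining genes cwp-3 was at 0 in 25 libraries, dmd-3 in 13, cwp-1 in 9, lov-1 in 8, cwp-2 in 6, and pkd-2 and cwp-5 in 1 each, while cwp-4, try-5 and mab-3 were at 0 in none. Deviations of this sum from the group mean followed those of the msp sum with an r of 0.792 and a rho of 0.729 over 45 libraries, 0.912 within the F1 and 0.424 within the parental libraries, and 0.723 without the 2 libraries farthest from the median. Replicate 1 held the highest male-soma sum in 6 of 7 F1 groups and in 4 of 8 parental groups. Of the 9 tested, 5 were higher in ECA701 against N2 (beside 27.7% of all genes) and 1 each in QX1211 and DL238 (beside 21.4% and 18.6%). None was called in EG4348, CB4856, XZ1516 or ECA722, and none was lower in any strain. Against the wild parent 4 were lower in the ECA701 F1 (beside 25.3%). In the F1 5 were higher in CB4856 (beside 14.7%), 4 in XZ1516 (beside 19.2%) and 3 in EG4348 (beside 9.5%). In QX1211 2 were higher and 1 lower (beside 27.0% and 24.2%), in ECA722 1 was higher (beside 17.7%), and in DL238 none was called. Within groups these markers thus moved with the msp sum, less closely among the parental libraries. Between group means it was not always so. QX1211, ECA722 and XZ1516 averaged above N2 in the marker sum, but the libraries of each overlapped those labelled N2. Over the 9 tested markers the median log2 change from N2 was 0.49 in QX1211, 0.04 in ECA722 and -0.57 in XZ1516. In XZ1516 the sum and the median marker thus lay on opposite sides of N2. The mean msp sums of QX1211, ECA722 and XZ1516 by kallisto were below that of N2, at 124, 81.8 and 47.2 against 189.8 CPM. The F1 groups other than ECA701 averaged above N2 in the marker sum, though only CB4856 did so without overlap. The msp sums of these F1 groups overlapped those of N2. The part of these markers in the msp differences was not tested.

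**Figure D4:**
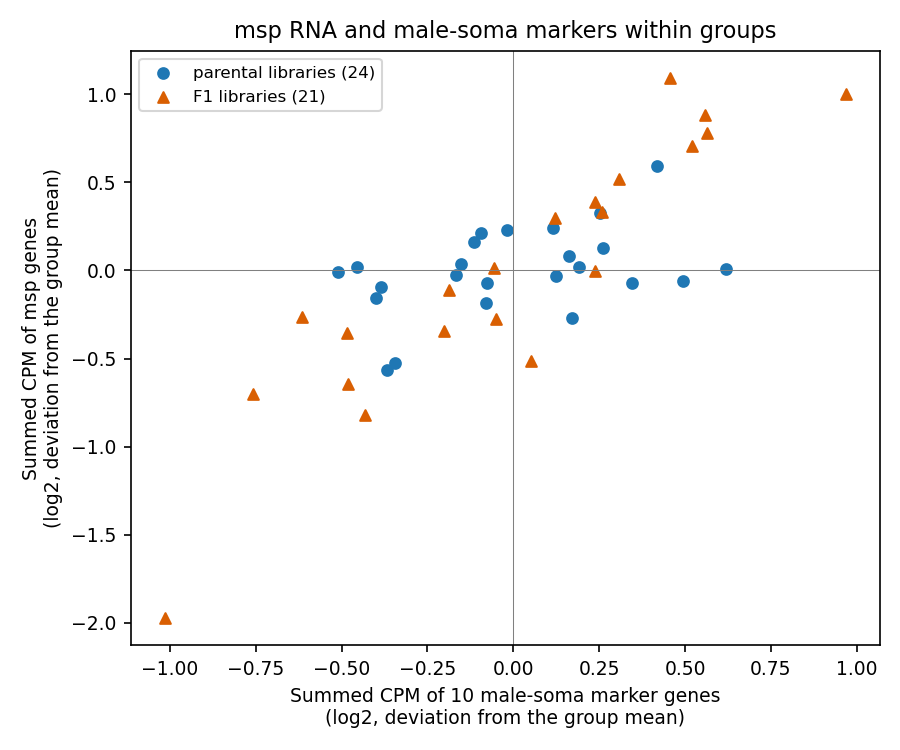
Deviation from the group mean of the log2 summed CPM of the msp genes (vertical) against that of 10 male-soma genes (horizontal) in 24 parental libraries (circles) and 21 F1 libraries (triangles). The relation is closer among the F1 libraries (r of 0.912) than among the parental libraries (r of 0.424), and 1 ECA722 F1 library lies at the lower left.

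The 2 countings of the msp genes parted in a number of cases. Over 322 values (46 members in 7 wild strains), 31 had opposite signs. Kallisto called 139, of which 99 were called in the same direction by the allele-aware totals and 40 were not, 9 of these with the opposite sign. An example of a wide gap was msp-152 in QX1211, at -6.91 by kallisto and 1.08 by the allele-aware totals. For msp-33 the values were -3.82 and 0.83 in ECA701 and -3.53 and 0.10 in ECA722, and for msp-55 in ECA722 they were -2.79 and 1.55. Smaller reversals were msp-3 in QX1211 (-1.36 and 0.99), msp-49 in DL238 (-1.86 and 0.41) and in ECA701 (-1.13 and 0.46), and the ssp-9 genes in QX1211 (both -1.12, and 0.07 and 0.27). By strain, QX1211 (10) and ECA722 (9) held the most kallisto calls that were not shared and DL238 (1) the fewest.

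**Figure D5:**
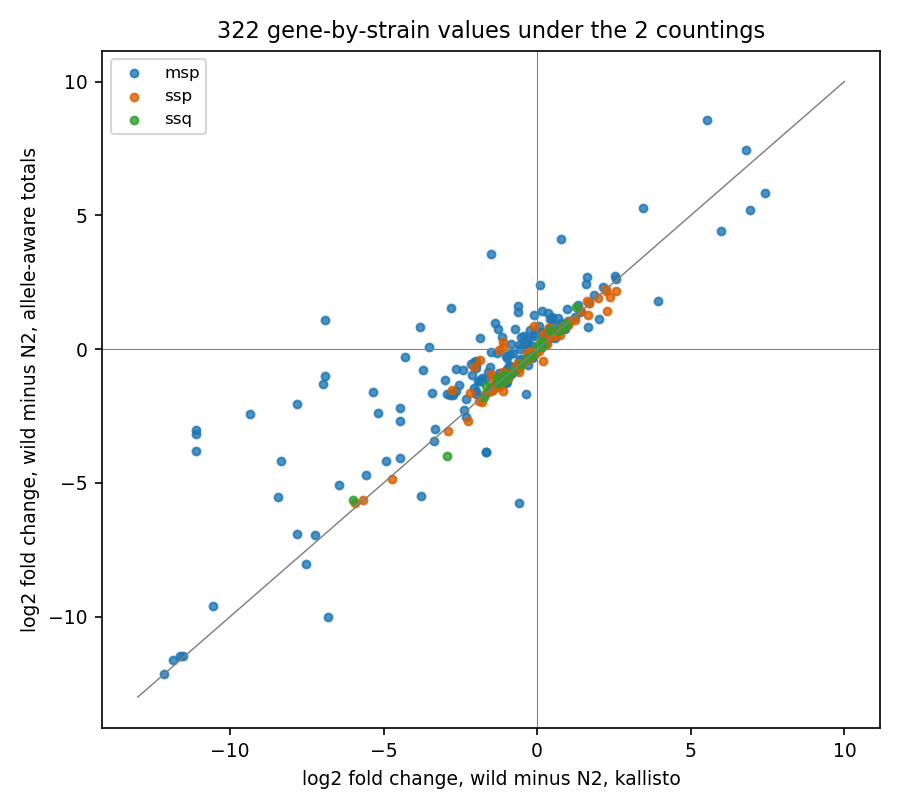
Log2 fold change of each tested member against the libraries labelled N2 by kallisto (horizontal) and by the allele-aware totals (vertical), 322 values over 7 wild strains, coloured by family, with the line of equality. Most ssq points lie near the line, ssq-2 in QX1211 (-2.93 and -4.0) lies below it, and 31 points have opposite signs, among them msp-152 in QX1211 (-6.91 and 1.08).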

How the data were processed

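The libraries held polyadenylated RNA of whole animals. Per the submitters' processing notes, Trimmomatic 0.39, Salmon 1.4, kallisto, FastQC and DESeq2 1.42.0 were used and ce11 was the build. The authors deposited kallisto estimated counts and TPM per transcript, allele-aware gene tables of expected counts that their names credit to salmon and emase-zero, and salmon's equivalence classes with fragment counts. The kallisto files of the F1 carry transcript lengths of the wild parent, so those counts appear to rest on its transcripts alone, which is inferred. In the allele-aware files the libraries labelled N2 were counted with QX1211 as the other allele, and EG4348 appears there as EG4349. Gene coordinates are from the WBcel235 annotation. Every column of values belonged to a sample (0 left over).

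Counts were summed per gene, rounded and tested in edgeR 4.0.16 (R 4.3.3) by its quasi-likelihood test at a Benjamini-Hochberg adjusted p of 0.05, after TMM scaling and filterByExpr (16444 of 19684 genes passed), in 1 fit of 45 libraries with 1 coefficient per group (30 residual degrees of freedom). Alleles were tested within each cross. Procedures were tested on simulated data. Totals were 24.5 to 90.5 M kallisto and 24.8 to 91.9 M allele-aware counts per library, and replicates differed beyond sampling noise (chi-square per degree of freedom 2.96 to 44.0). Alternatives were the allele-aware totals, fragments of single-gene classes, DESeq2 size factors, DESeq2, no count filter, only the groups compared, a replicate block and each library left out. Their effect is given in the closing section.

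Named were the 3 most abundant members per family by mean TPM, the called member with the largest rise and fall in each wild strain whose libraries did not overlap N2, the largest changes in the F1 mean and in the allele tests, and partner genes by the same rule. The other members named, msp-32, ssp-16, msp-55, msp-152 and the near-zero copies among them, were chosen after their values were seen. The members, the lists and the tests were chosen with earlier results of these data known. Among markers of other tissues, 3 to 10 of 10 oocyte genes were higher and 0 lower in a wild strain than in N2. Of 8 tested early embryo genes 0 to 2 were higher and 0 to 5 lower, of 6 intestine genes 2 to 5 higher and 0 to 2 lower, and of 4 muscle genes 1 to 4 higher and 0 lower, beside 18.2% to 27.7% of all genes called higher and 13.4% to 24.8% called lower in these contrasts.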

Additional observations from a re-analysis of the deposited data

Results flagged for a closer look

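The msp sum moved in opposite directions between crosses when F1 animals were set against their wild parent. In the allele-aware totals every CB4856 F1 library lay above every CB4856 parental library, with a ratio of means of 2.03, and so did every XZ1516 F1 library, with a ratio of 3.89. Every ECA701 F1 library lay below every ECA701 parental library, with a ratio of 0.251. The difference between these crosses was not itself tested. The mean summed level of the 10 male-soma genes went the same way in each of these crosses. It went from 1.16 to 2.55 CPM in CB4856, from 1.53 to 2.79 CPM in XZ1516 and from 3.94 to 1.41 CPM in ECA701. In the XZ1516 F1 this mean rested largely on replicate 1, at 4.84 CPM. Replicates 2 and 3 each held 1.77 CPM, beside up to 1.74 CPM in the parent. The part of this sum in the msp differences was not tested.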

How the results depend on the processing

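Counts of members called were the most sensitive to which libraries entered the fit. With only the groups compared, 41 members were called in wild EG4348 against N2, 39 in CB4856, 36 in QX1211 and 12 in DL238, against 13, 16, 20 and 7 with all libraries. The F1 against N2 then gave 36 in ECA701, 8 in QX1211, 7 in CB4856, 5 in DL238, 3 in EG4348 and 2 in ECA722, and the F1 against the wild parent gave 38 in EG4348 and 39 in CB4856. In those fits 24.5% to 50.3% of all genes were called in wild strains against N2 (24.5% in CB4856, 26.0% in DL238, 35.2% in EG4348 and 47.2% in QX1211), 24.8% to 46.4% in the F1 against N2 (46.4% in ECA701), and 26.7% and 29.6% in the EG4348 and CB4856 F1 against the wild parent. The cause was not tested. Fragments of single-gene classes gave 10 in wild CB4856, 2, 12 and 10 in the EG4348, QX1211 and ECA722 F1 against N2, and 9 and 10 in the QX1211 and ECA722 F1 against the wild parent. The allele-aware totals gave 14 in wild ECA722, 8 in the QX1211 F1 against N2, and 8 and 8 in the QX1211 and ECA722 F1 against the wild parent.

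In the allele-aware totals the log2 ratio of the msp sum to N2 was 1.10 in ECA701, 0.21 in QX1211, -0.63 in ECA722, -0.96 in EG4348, -1.17 in CB4856 and -1.28 in XZ1516, against 0.51, -0.61, -1.21, -1.08, -1.28 and -2.01 by kallisto. That of the ssp sum was -1.28 in EG4348, -0.084 in XZ1516 and 0.44 in ECA722, and that of the ssq sum -1.19 in CB4856. Allele tests on allele-specific fragments alone called 18 members in ECA722, 14 in XZ1516, 9 in ECA701, 6 in CB4856, 5 in DL238 and 4 in EG4348, and a minimum of 30 fragments gave 5 in CB4856. Direction turned for the ssp-9 gene WBGene00006038 in QX1211 (0.075 allele-aware and 10.81 in single-gene classes) and XZ1516 (7.37 in single-gene classes), for WBGene00006040 in the same strains (0.27 and 10.33, and 7.23), and for msp-33 in ECA701 (0.83 and 0.71) and ECA722 (0.10 allele-aware). The ssp-9 genes have identical N2 transcripts, so libraries labelled N2 could give almost no single-gene fragments for either. Their single-gene values cannot be read as rises in the wild strains.

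Leaving out 1 library at a time gave 6 to 10 called members in wild EG4348 (6 to 8 without N2 replicate 1 or 2 or any EG4348 library) and 10 to 14 in CB4856 (10 without CB4856 replicate 2). The F1 against N2 gave 1 to 2 in CB4856, 3 to 5 in QX1211 (3 without N2 replicate 3), 1 to 3 in DL238 (1 without N2 replicate 3 or F1 replicate 1), 10 to 19 in ECA701 (10 without F1 replicate 3, 12 without F1 replicate 2 or N2 replicate 2) and 3 to 11 in ECA722 (3 without N2 replicate 2, 11 without F1 replicate 2). The F1 against the wild parent gave 4 to 23 in EG4348 (4 without F1 replicate 1, 23 without F1 replicate 3, 6 to 7 without F1 replicate 2 or parental replicate 2 or 3), 6 to 10 in CB4856 (6 if the first F1 or the third parental library was left out) and 14 to 26 in ECA722 (26 without F1 replicate 1). The allele tests gave 0 to 1 in EG4348 and in CB4856 without any 1 library, 5 to 12 in QX1211 (5 without F1 replicate 1 or 3), 0 to 2 in DL238 (0 without replicate 1, 1 without 3), 2 to 3 in ECA701 (2 without replicate 1 or 2) and 2 to 6 in ECA722 (2 without replicate 2, 3 without 3). Leaving out a library that stood apart, chosen after seeing the data, gave log2 ratios of the msp sum to N2 of 0.06 in the ECA722 F1, -0.36 in the XZ1516 F1, -0.23 in the DL238 F1 and -0.17 in parental DL238.

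Counts under DESeq2, DESeq2 size factors and no count filter stayed within 1.5 times those given. Not every same-numbered pair correlated above 0.1, so the replicate numbers were not taken to pair the libraries: 90 of 315 pairs had deviations correlated above 0.1 (median r 0.025, lowest -0.60). As a hint from the data, 25 of 45 libraries correlated best with their own number, and replicate 1 held the highest msp sum in 6 of 7 F1 groups. With the replicate number as a block, the counts in wild strains against N2 were 37 for XZ1516, 25 for ECA701, 23 for CB4856, 23 for ECA722, 20 for QX1211, 16 for EG4348 and 8 for DL238, and no count moved by over 1.5 times. Reads shared between copies limit single-gene values of the msp genes: 15 of 31 had under 50% of their fragments to themselves.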
